A study of Homo sapiens with 4 samples.

Results

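Mitochondrial transfer RNAs were examined among the RNAs recovered with beta-catenin in nuclear lysates of HT-29 and CaCo-2 cells, 2 human colon cancer lines. They were taken as every transcript whose deposited annotation class is Mt_tRNA, which gave 4 of the 9880 transcripts listed for HT-29 and 10 of the 11943 listed for CaCo-2. Together these are 11 of the 22 tRNA genes in RefSeq's human mitochondrial record, and all 11 matched it by name and length. The study set RNA pulled down with a beta-catenin antibody (RIP) against input RNA taken with no antibody, in untreated cells of each line. A line was represented by a single RIP and a single input, 4 libraries in all, so no value below carries an error between replicates and no fold was tested across replicates. Both tables are partial: the lowest RIP over input fold in either is 1.5, so every listed tRNA is higher in the RIP by construction, and a gene that is not listed was not analysed here.

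Human mitochondrial DNA is read from both strands into long precursor RNAs in which tRNAs sit between the messenger and ribosomal RNAs. The tRNAs are cut out at both ends, receive a CCA tail, are modified and charged with an amino acid, and then serve the mitochondrial ribosome. They work inside the mitochondrion, whereas the labels describe isolation of nuclei before lysis. Beta-catenin is the co-activator through which canonical Wnt signalling acts on transcription.

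The members were short, single-exon genes of 59 to 73 nucleotides on the mitochondrial chromosome. On the minus strand lay MT-TQ (glutamine tRNA, positions 4328 to 4399), MT-TA (alanine, 5586 to 5654), MT-TN (asparagine, 5656 to 5728), MT-TC (cysteine, 5760 to 5825) and MT-TS1 (the serine tRNA that reads UCN codons, 7445 to 7513). On the plus strand lay MT-TV (valine, 1600 to 1668), MT-TM (methionine, 4401 to 4468), MT-TW (tryptophan, 5511 to 5578), MT-TG (glycine, 9990 to 10057), MT-TR (arginine, 10404 to 10468) and MT-TS2 (the serine tRNA that reads AGY codons, 12206 to 12264). Positions are those of the hg19 tables, counted from 1; RefSeq's mitochondrial record places 10 of the 11 genes 1 base further on and 1 gene, MT-TV, 2 bases further on. All 4 tRNAs listed in HT-29 were on the minus strand, against 4 of the 10 in CaCo-2. MT-TA, MT-TN and MT-TS1 were listed in both lines, MT-TQ in HT-29 alone and the other 7 in CaCo-2 alone. The 11 tRNA genes in neither table were MT-TF, MT-TL1, MT-TI, MT-TY, MT-TD, MT-TK, MT-TH, MT-TL2, MT-TE, MT-TT and MT-TP.

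MT-TA, MT-TS1 and MT-TN held ranks 1, 2 and 3 by RIP FPKM among all listed transcripts of each line. FPKM is the number of sequenced fragments scaled by transcript length and library size, and for RNAs this short it depends strongly on length, as described further down. MT-TA, whose gene lies between MT-TW and MT-TN, reached 1194760 FPKM in the HT-29 RIP against 613712 in the HT-29 input, a 1.95-fold difference. In CaCo-2 it was at 2401800 FPKM in the RIP against 1436450 in the input, a 1.67-fold difference. It was also the highest listed transcript of both inputs, so its rank was the same with and without the antibody. The lysates are bulk samples, in which fewer cells with an RNA and less of it per cell cannot be told apart.

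MT-TS1 (ENST00000387416) had the largest fold among the members with input above 0 in both lines. Its RIP value in HT-29 was 624533 FPKM against 61371 in the input, which is 10.2-fold. In CaCo-2 it was at 1191450 FPKM in the RIP against 192514 in the input, or 6.19-fold. The authors' deposited table gives it q of 0.0339 in HT-29 and 3.7e-09 in CaCo-2, from 1 library per side. The MT-TS1 gene directly follows the cytochrome oxidase subunit 1 gene (MT-CO1, COX1 in RefSeq), which is read from the opposite strand. The kit named in the labels does not mark strand, so fragments of MT-TS1 and fragments of plus-strand RNA across the same bases cannot be told apart, and this holds for every tRNA here. Background on the human MT-CO1 messenger is that it runs on into the antisense of this tRNA.

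MT-TN, the asparagine tRNA, had 355845 FPKM in the HT-29 RIP against 141163 in the input, 2.52-fold higher. In CaCo-2 it was at 542745 FPKM in the RIP and 209944 in the input, 2.59-fold higher. These folds were close in the 2 lines, which had separate inputs. The authors' deposited table gives q of 0.372 for MT-TN in HT-29 and 0.00382 in CaCo-2. For MT-TA the same table gives q of 0.294 in HT-29 and 0.0278 in CaCo-2.

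**Figure D1:**
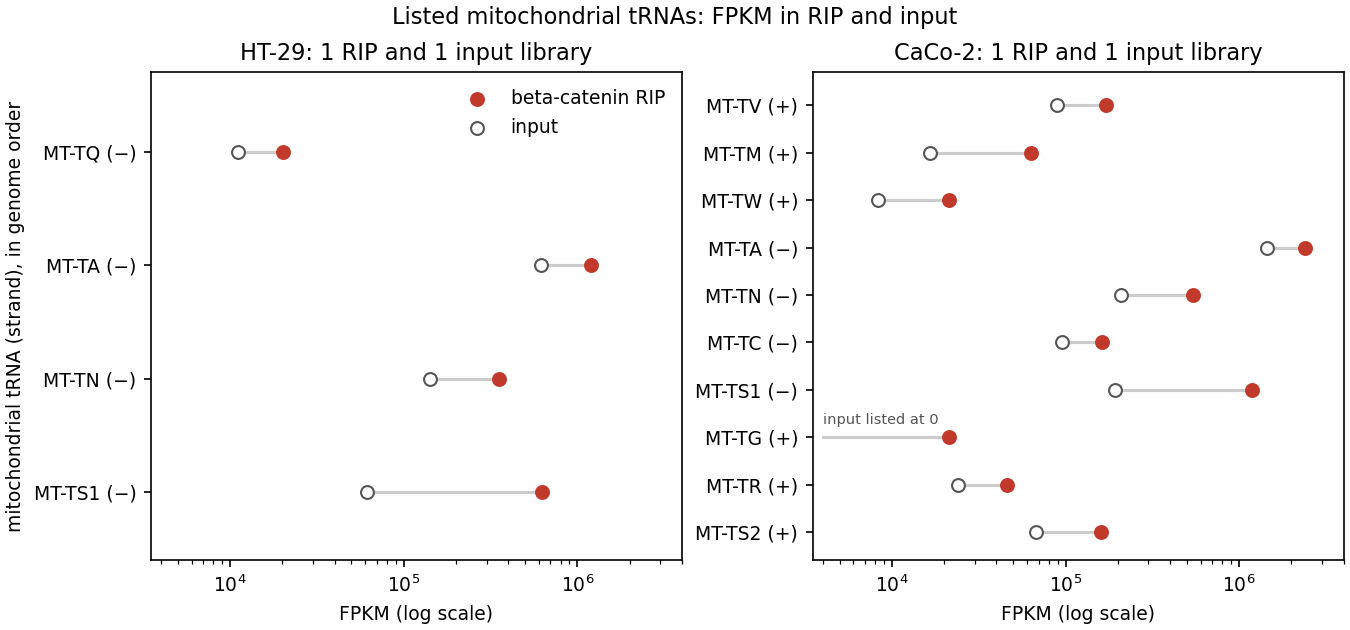
FPKM of each listed mitochondrial tRNA (log axis) in the beta-catenin RIP (filled) and the input (open), with genes in genome order and their strand in brackets, 1 library per point. MT-TA lies furthest right in both lines, at 1194760 and 2401800 FPKM in the RIPs, and MT-TS1 has the widest gap between RIP and input among tRNAs with input above 0, 10.2-fold in HT-29 and 6.19-fold in CaCo-2.

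The remaining minus-strand members were listed in 1 line each. MT-TQ, the glutamine tRNA, had 20094 FPKM in the HT-29 RIP against 11162 in the input, 1.80-fold. MT-TC, the cysteine tRNA, was at 161980 FPKM in the CaCo-2 RIP against 95164 in the input, 1.70-fold. MT-TQ overlaps the end of MT-TI, which is read from the opposite strand, and MT-TC meets the end of MT-TY, which is read from the same strand. The authors' deposited table gives each of these pairs a joint locus. How reads were divided within such a locus is not given in the sources used here. Neither tRNA had q at or below 0.05 in the authors' deposited table, where q was 0.974 for MT-TQ and 0.910 for MT-TC.

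The plus-strand members were listed in CaCo-2 only and, apart from MT-TV and MT-TS2, were well below the minus-strand ones of that line. MT-TV, which in human cells is also a structural RNA of the mitochondrial ribosome, was at 170206 FPKM in the RIP against 88853 in the input, 1.92-fold. Its gene lies between those of the 12S and 16S ribosomal RNAs, RNR1 and RNR2, neither of which was listed. MT-TS2, a serine tRNA that lacks the D arm, was at 160201 FPKM in the RIP against 67928 in the input, 2.36-fold. MT-TM, which supplies methionine for both initiation and elongation, was at 63594 FPKM in the RIP against 16577 in the input, 3.84-fold. MT-TR, the arginine tRNA, was at 46102 FPKM in the RIP against 24160 in the input, 1.91-fold. MT-TW, the tryptophan tRNA that also reads the UGA codon in mitochondria, was at 21198 FPKM in the RIP against 8289 in the input, 2.56-fold. MT-TG, the glycine tRNA, had the same RIP value, 21198 FPKM, and an input listed at 0, so no fold is given. In the authors' deposited table q was 0.637 or more for all 6. The 2 serine tRNAs thus differed in listing: MT-TS1 was in both tables, and MT-TS2 in that of CaCo-2.

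At least 2-fold higher in the RIP, on a log2 scale with 1 FPKM added to each value, were 2 of the 4 mitochondrial tRNAs of HT-29 and 6 of the 10 of CaCo-2. Of all listed transcripts with at least 1 FPKM in either library, 56.0% passed that ratio in HT-29 and 40.8% in CaCo-2. The members past it were MT-TS1 and MT-TN in HT-29, and MT-TS1, MT-TN, MT-TM, MT-TW, MT-TS2 and MT-TG in CaCo-2. By ratios of fragments, estimated as described further down, the count was 4 of 4 for HT-29 and 5 of 9 for CaCo-2. These ratios are not corrected for depth, and no share over other transcripts is given on that measure. MT-TQ in HT-29, and MT-TW and MT-TS2 in CaCo-2, lay at a ratio of exactly 2. By FPKM, over tRNAs with at least 9 fragments in both libraries, it was 1 of 2 for HT-29 and 2 of 5 for CaCo-2. This left out MT-TS1 in HT-29, which had 4 input fragments. All 4 and all 10 members passed the filter on low values. Their median log2 ratio was 1.15 in HT-29, against 1.14 over all listed transcripts, and 1.30 in CaCo-2, against 0.82. Over entries with input above 0, the median fold was 2.23 over the 4 tRNAs of HT-29 and 2.36 over 9 tRNAs of CaCo-2, against 2.46 and 2.21 over all such transcripts. In the authors' deposited table, q was at or below 0.05 for 1 of the 4 tRNAs of HT-29, against 3.08% of all listed transcripts, and for 3 of the 10 of CaCo-2, against 2.24%.

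Most other short RNAs of the tables had an input listed at 0. In HT-29 this was so for 0 of 4 mitochondrial tRNAs and for 31 of the 34 other transcripts of up to 100 nucleotides. In CaCo-2 it was so for 1 of 10 tRNAs and for 53 of the 58 others. The others rested on a median of 1 fragment in either RIP, by the reading given in the next paragraph, with 29 at most in HT-29 and 3 at most in CaCo-2. Among entries with input above 0, the tRNA medians of 2.23-fold in HT-29 and 2.36-fold in CaCo-2 stood between those of other small RNA classes. The HT-29 medians were 6.42 for 56 small nucleolar RNAs, 3.19 for 8 ribosomal RNAs, 3.18 for 17 small nuclear RNAs and 1.59 for 59 transcripts of the class misc_RNA, which holds Y and 7SK RNAs, among others. The CaCo-2 medians were 2.55 for 17 small nucleolar RNAs, 2.53 for 5 miRNA genes, 2.18 for 66 misc_RNA transcripts and 1.55 for 3 ribosomal RNAs, with 5.21 for 2 small nuclear RNAs. Those medians left out inputs at 0, among them 39 of 95 small nucleolar RNAs and all 21 miRNA genes in HT-29. In CaCo-2 they left out 32 of 49 small nucleolar RNAs and 42 of 47 miRNA genes. With inputs at 0 kept, the median log2 ratio of the HT-29 tRNAs, 1.147, was the lowest of these classes, next to 1.235 for misc_RNA. In CaCo-2 it was 1.296, against 1.073 for misc_RNA and 4.102 or more for the other classes. These are descriptions of 1 library per side and were not tested.

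The FPKM of short RNAs moved in even steps, from which the number of fragments behind each value was estimated. Among listed short RNAs, the smallest value recurred at a given length and the others were multiples of it. Taking that step as 1 fragment, 99 of 101 values of up to 10 fragments in the HT-29 RIP and 43 of 45 in the HT-29 input came within 2% of a whole multiple. In CaCo-2 this held for 132 of 133 values in the RIP and 22 of 22 in the input. At least 1 value at each of the 48 and 26 spans in HT-29 and the 57 and 17 spans in CaCo-2 (RIP and input) that fixed the step is whole by construction. That the smallest step is a single fragment is an assumption, since the tables hold no counts. At 69 nucleotides 1 fragment was worth 13570 FPKM in the RIP of HT-29 and 15343 in its input. In CaCo-2 it was worth 9455 FPKM in the RIP and 7398 in the input. The highest FPKM values of the tables therefore rested on 39 to 254 fragments per tRNA in the RIPs, and the lowest tRNA values on 1 or 2.

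**Figure D2:**
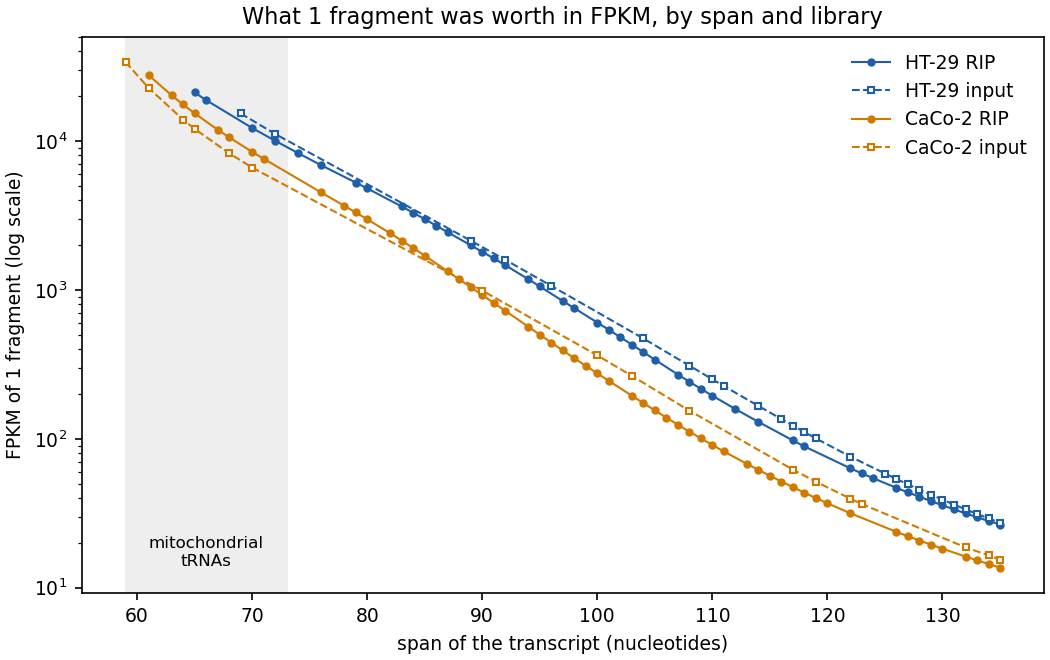
FPKM of 1 fragment (log axis) against transcript span in nucleotides for the 4 libraries; each point is a span at which the step was read from the listed short RNAs, and the grey band marks the 59 to 73 nucleotides of the mitochondrial tRNAs. All 4 curves fall steeply with length, and those of the CaCo-2 RIP and input cross, so that the RIP curve is the higher one at tRNA length, 9455 against 7398 FPKM at 69 nucleotides. In the HT-29 input, the points within the band come from MT-TS1 and MT-TQ themselves, and the next point lies at 89 nucleotides. In the CaCo-2 input, the points at 59, 65 and 68 nucleotides come from MT-TS2, MT-TR and MT-TW.

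Read in this way, MT-TS1 had 46 fragments in the HT-29 RIP against 4 in the input, and 126 in the CaCo-2 RIP against 26 in the input. MT-TA had 88 against 40 in HT-29 and about 254 against 194 in CaCo-2. MT-TN had 39 against 14 in HT-29 and about 88 against 43 in CaCo-2. These 3 held most of the signal: 173 of 175 RIP fragments and 58 of 59 input fragments of the HT-29 members, and 468 of 515 RIP fragments and 263 of 291 input fragments of the CaCo-2 members. MT-TV had 18 against 12 fragments and MT-TC 12 against 9. The other members rested on very few: MT-TM had 6 against 2, MT-TS2 4 against 2, MT-TR 3 against 2, MT-TW 2 against 1, MT-TG 2 against 0, and MT-TQ in HT-29 2 against 1. These are numbers in libraries whose total depth is unknown from the tables, so their ratios are not corrected for depth. In the HT-29 input, MT-TS1 and MT-TQ set the step at their own lengths, so their numbers there are whole by construction. The same holds for MT-TQ in the HT-29 RIP, MT-TR in the CaCo-2 RIP, and MT-TS2, MT-TR and MT-TW in the CaCo-2 input. With all tRNAs left out of the steps, the HT-29 input values came to 4.08 for MT-TS1 and 1.03 for MT-TQ. Those of MT-TN and MT-TA came to 14.4 and 40.8. For MT-TS2 in CaCo-2 the values came to 4.11 in the RIP and 2.08 in the input, so its numbers are rounded.

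Counting error set wide limits on most of these folds. With exact 95% Clopper-Pearson limits on the fragment numbers, the FPKM fold of MT-TS1 ran from 3.71 to 38.9 in HT-29, where the input held 4 fragments, and from 4.04 to 9.85 in CaCo-2. That of MT-TN ran from 1.34 to 5.03 in HT-29 and from 1.76 to 3.79 in CaCo-2. For MT-TA the fold ran from 1.32 to 2.90 in HT-29 and from 1.38 to 2.03 in CaCo-2. For MT-TV (0.874 to 4.36), MT-TC (0.658 to 4.57), MT-TM (0.686 to 38.9), MT-TR (0.219 to 22.8), MT-TS2 (0.329 to 25.4) and MT-TW (0.133 to 151) in CaCo-2 the interval took in 1, and for MT-TQ in HT-29 it ran from 0.0937 to 106. A difference between RIP and input was not detectable at this depth for these 7, nor for MT-TG with 2 fragments against 0. Fragments amplified by PCR are not independent molecules, so the intervals cover counting error only. The intervals also do not allow for the listing, whose lowest fold of 1.5 fixed the direction of every member beforehand. An interval above 1 is therefore no test of a difference.

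**Figure D3:**
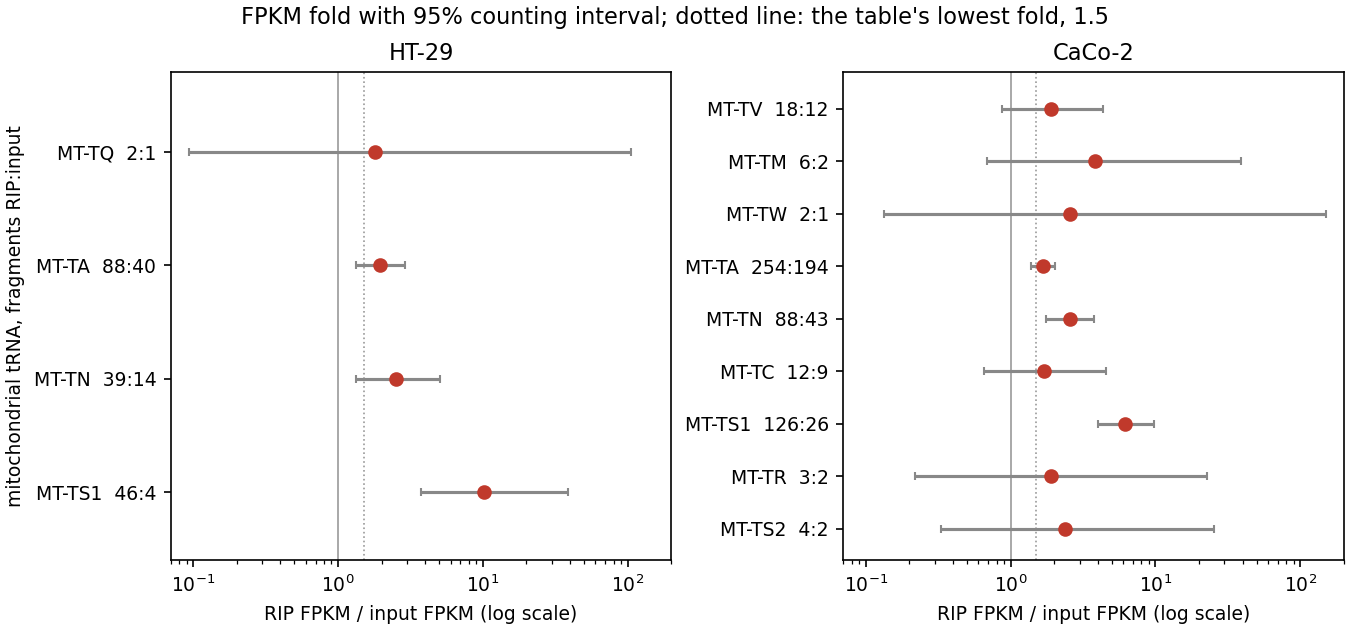
RIP over input FPKM fold (log axis) of each mitochondrial tRNA with input above 0, with the 95% exact interval from fragment numbers, which are printed beside each name as RIP:input; the dotted line is the tables' lowest fold, 1.5. The intervals of MT-TS1, MT-TN and MT-TA lie above 1 in both lines, and that of MT-TS1 alone lies above 3 in both, from 3.71 in HT-29 and 4.04 in CaCo-2. They do not allow for the listing by fold, which fixed the direction beforehand.

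What a fragment was worth lowered every FPKM fold in HT-29 and raised every one in CaCo-2, relative to the ratio of fragments. At 69 nucleotides, equal numbers of fragments gave a RIP over input fold of 0.884 in HT-29 and 1.28 in CaCo-2. At 100 nucleotides it was 0.847 for HT-29 and 0.757 for CaCo-2. A tRNA of 69 nucleotides thus reached the tables' 1.5-fold minimum with 1.17 times as many fragments in the RIP as in the input in CaCo-2, but needed 1.70 times as many in HT-29. In CaCo-2, MT-TV and MT-TR (each with 1.5 times as many fragments in the RIP), MT-TC (1.33 times) and MT-TA (1.31 times) lay between these limits. The part of this difference in the longer CaCo-2 listing was not tested.

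The balance among tRNAs within a library does not depend on its depth, and for genes of equal length it does not depend on the length scaling. MT-TS1 and MT-TA are both 69 nucleotides long, and this ratio was chosen after their values were seen. MT-TS1 was at 0.523 times the FPKM of MT-TA in the HT-29 RIP and 0.10 times in the HT-29 input. In CaCo-2 the ratio was 0.496 in the RIP and 0.134 in the input. MT-TS1 was thus 5.23-fold higher relative to MT-TA in the RIP than in the input of HT-29, and 3.70-fold higher in CaCo-2, while the 2 RIPs gave nearly the same ratio. In the HT-29 input, MT-TS1 rested on 4 estimated fragments. Both values restate the folds of MT-TS1 and MT-TA and are no test of them.

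Of the summed fragments of MT-TS1, MT-TN and MT-TA, MT-TS1 made up 26.6% in the HT-29 RIP (95% Wilson interval 20.6 to 33.6) against 6.90% in the input (2.71 to 16.4). In CaCo-2 it made up 26.9% in the RIP (23.1 to 31.1) against 9.89% in the input (6.84 to 14.1). MT-TS1 was singled out here for its fold, so its shares restate that fold on another scale and are no test of it. MT-TA made up 50.9% in the HT-29 RIP (43.5 to 58.2) against 69% in the input (56.2 to 79.4). In CaCo-2 it made up 54.3% in the RIP (49.7 to 58.7) against 73.8% in the input (68.1 to 78.7). These intervals count fragments of 1 library per side and cover no spread between libraries. The shares within a library are parts of one sum, so the lower MT-TA shares in the RIPs are not independent of the higher MT-TS1 shares. MT-TN made up 22.5% in the HT-29 RIP against 24.1% in the input, and 18.8% in the CaCo-2 RIP against 16.3% in the input. Without MT-TS1, the members together had 129 fragments in the HT-29 RIP against 55 in the input, and 389 in the CaCo-2 RIP against 265 in the input.

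**Figure D4:**
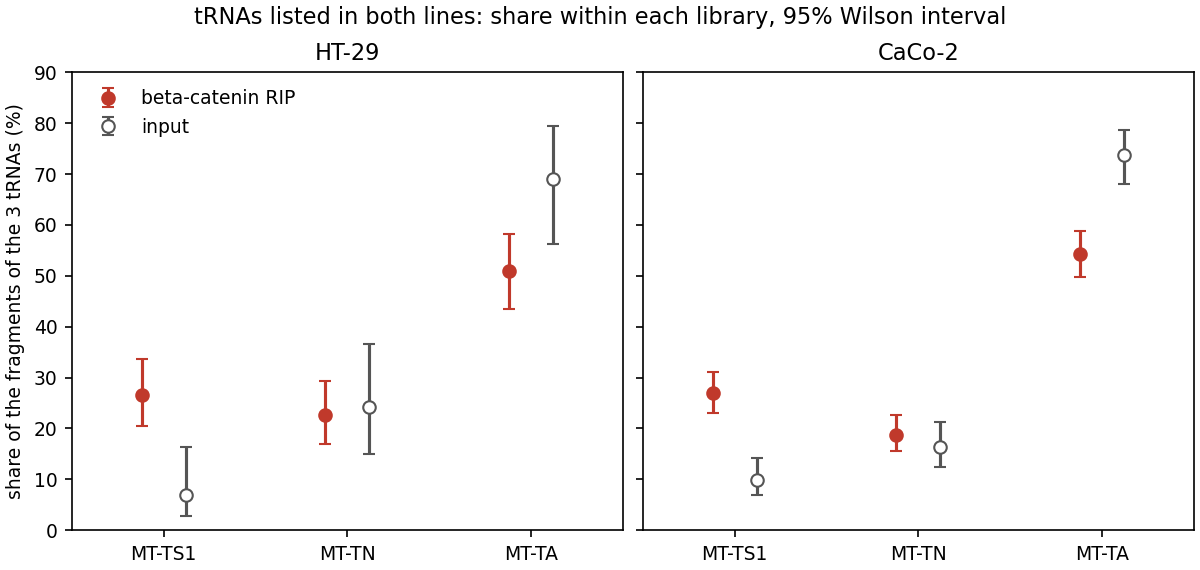
Share (%) of MT-TS1, MT-TN and MT-TA in the sum of their fragments in each library, RIP filled and input open, with 95% Wilson intervals that cover counting error only. MT-TS1 is at 26.6% and 26.9% in the 2 RIPs against 6.90% and 9.89% in the inputs, and MT-TN is at 22.5% and 18.8% in the RIPs against 24.1% and 16.3% in the inputs.

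By strand, minus-strand genes held 480 of 515 member fragments in the CaCo-2 RIP (93.2%) and 272 of 291 in the input (93.5%). The 6 plus-strand genes had 35 fragments in the RIP and 19 in the input, 1.84 times as many, against 1.76 times for the minus-strand genes. The strand is that of the annotation, since the libraries do not record it. The sums run over tRNAs that were listed for being higher in the RIP, so they do not give the balance between the strands.

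No other transcript of the mitochondrial chromosome was listed: the number of ribosomal RNA and protein-coding entries was 0 in both tables. Nuclear copies of mitochondrial DNA were listed at low levels; those given here were picked with their values in view. MTATP6P1, a copy of the ATP synthase subunit 6 gene on chromosome 1 (569076 to 569756), had 10.1 FPKM in the HT-29 RIP against 2.75 in the input, and 5.25 in the CaCo-2 RIP against 2.95 in the input. MTND1P23 (chromosome 1, 564442 to 564813) had 4.61 FPKM in the CaCo-2 RIP against 2.30 in the input. Chromosome 1 carries a long stretch here that is nearly identical to mitochondrial DNA, and how reads fitting both places were assigned is not given in the sources used here. The values of tRNAs with such a copy are uncertain to that extent, and which tRNAs have one was not examined here.

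Of 71 nuclear genes for mitochondrial transcription, RNA processing and modification, translation and tRNA charging, 27 had a transcript in the HT-29 table and 40 in that of CaCo-2. Not all of them act on tRNAs. The 2-fold ratio was passed by 11 of these 27 (40.7%) in HT-29, where 56.0% of the table passed it. In CaCo-2 it was passed by 20 of 39 genes with at least 1 FPKM (51.3%), where 40.8% of the table passed it. Each gene stands for its transcript with the highest RIP level, whereas the table's share runs over single transcripts, so these shares are not like for like. Picking by RIP level can by itself raise a gene's ratio of RIP over input. The HT-29 count was 6 without inputs at 0, 2 with 1 FPKM in both libraries, 20 with 0.1 FPKM added to each value and 0 with 10 FPKM added. The CaCo-2 count was 7, 2, 27 and 0 under the same settings. The median log2 ratio was 0.94 for HT-29 and 1.05 for CaCo-2. An input of 0 was listed for 5 genes of the HT-29 table and 13 of the CaCo-2 table, and 0 of the listed genes had q of 0.05 or less in either line by the authors' deposited table.

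Among the processing factors, ELAC2, the nuclease that cuts the 3′ end of tRNAs, had 4.28 FPKM in the RIP of HT-29, its input being listed at 0, and 3.13 in the CaCo-2 RIP against 0.00079 in the input. KIAA0391, the catalytic subunit of the protein-only RNase P that cuts the 5′ end, had 3.39 FPKM in the HT-29 RIP against 0.475 in the input. TSFM, a mitochondrial translation elongation factor, had 4.76 FPKM in the RIP of HT-29, its input being listed at 0. In CaCo-2, TBRG4 was at 4.95, GRSF1, an RNA-binding protein of mitochondrial RNA granules, at 3.10, TEFM, the mitochondrial transcription elongation factor, at 3.05, and SLIRP, a partner of LRPPRC in stabilising mitochondrial messengers, at 2.97 FPKM, each with input listed at 0. Each value is that of the transcript with the highest RIP level, which can be a retained-intron or decay isoform.

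Among the charging enzymes, HT-29 had 5 of 22 in its table, with 4 above the 2-fold ratio, where 56.0% of the table was above it. CaCo-2 had 10, with 6 above the ratio, where 40.8% of the table was above it. These shares are not like for like either, since each enzyme's transcript was picked by its RIP level, which can raise the ratio. CARS2, the cysteine enzyme, had 4.12 FPKM in the RIP of HT-29, its input being listed at 0, from a retained-intron transcript. NARS2, which charges the tRNA encoded by MT-TN, had 4.85 FPKM in the HT-29 RIP against 0.278 in the input, and 6.17 in the CaCo-2 RIP against 2.22 in the input. YARS2, the tyrosine enzyme, had 3.64 FPKM in the HT-29 RIP against 0.639 in the input, from a transcript of the class processed_transcript. IARS2, the isoleucine enzyme, had 6.65 FPKM in the CaCo-2 RIP against 0.00126 in the input. SARS2, which charges both serine tRNAs, had 3.20 FPKM in the CaCo-2 RIP against 1.39 in the input, also from an isoform that keeps an intron. Neither its ratio nor that of NARS2 had q at or below 0.05 in the authors' deposited table.

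The HT-29 table held 5 of 7 colon epithelial markers and that of CaCo-2 held 3, but a gene is listed for its fold and not its level, so these numbers do not check the cell type. KRT18, a keratin of simple epithelia, had 54.3 FPKM in the HT-29 RIP against 14.7 in the input, and 32.0 in the CaCo-2 RIP against 11.6 in the input. In neither line was its q at or below 0.05 in the authors' deposited table. EPCAM and CDX2 were in neither table, and transcripts outside the tables were not analysed here.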

How the data were processed

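RNA from nuclear lysates of HT-29 and CaCo-2 cells, with and without a beta-catenin antibody, was made into libraries with a TruSeq RNA kit, per the labels' protocols. Cufflinks and Cuffdiff, TopHat2 2.0.8, Bowtie2, CASAVA 1.4 and the build hg19 are named, without their roles, per the submitters' processing notes. The mitochondrial sequence used and the handling of multiply mapped reads are not given there. The authors deposited 1 table per line with FPKM per Ensembl transcript and the p-values and q-values of their own test of 1 library against 1, which are quoted as theirs. The deposited FPKM of the lines were normalised separately, so levels were not tested between lines. The number of columns of values left unmapped was 0. Start positions had 1 added, which makes all 11 lengths match RefSeq (GRCh38.p14).

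The members, lists and comparisons were chosen with earlier results of these data known. Ratios are the log2 of the deposited RIP value over the input value after adding 1 FPKM to both, for transcripts with at least 1 FPKM in either library. The FPKM of 1 fragment was followed from longer to shorter spans among snoRNA, snRNA, misc_RNA, miRNA, rRNA and Mt_tRNA entries, taking values of 1 to 4 steps as fixed points (48 and 26 spans in the RIP and input of HT-29, 57 and 17 in those of CaCo-2) and a quadratic between them. The method was run on simulated data made of exact whole multiples of a smooth curve. Such data check the calculation but cannot show that the smallest step in the deposited values is 1 fragment. Large numbers between fixed points, such as those of MT-TN and MT-TA in CaCo-2, are rounded estimates. Every Mt_tRNA was named, with up to 6 genes per line of the pathway lists by ratio; SARS2, NARS2 in CaCo-2, KRT18 and the nuclear copies were named after their values were seen. Total depth is unknown. No sequence of a mitochondrial tRNA was used here. Python 3.11.15, pandas 2.3.3 and scipy 1.17.1 were used.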

Additional observations from a re-analysis of the deposited data

How the results depend on the processing

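The count of tRNAs at least 2-fold higher in the RIP, 2 in HT-29 and 6 in CaCo-2, stayed within 1.5 times under the alternatives chosen at the start (a pseudocount of 0.1 or 10 FPKM, no filter, 1 FPKM in both libraries, inputs at 0 left out, and the authors' deposited fold). These alternatives could hardly move it, since no tRNA value above 0 was below 8289 FPKM. They could only drop MT-TG, whose input was listed at 0, so the stable count is no sign of robustness. With fragment ratios in place of FPKM, an alternative added after seeing the data, the count was 4 of 4 in HT-29. Over members with at least 9 fragments in both libraries, also added, it was 1 of 2 for HT-29 and 2 of 5 for CaCo-2. The median log2 ratio became 1.31 in HT-29 with fragment ratios. In CaCo-2 it became 1.24 with 1 FPKM in both libraries, without inputs at 0 and with the authors' deposited fold, 1 with fragment ratios and 0.94 over members with at least 9 fragments. Each change follows from the scaling or from the fewer members. The log2 ratio of a single tRNA could not change sign with another pseudocount or with the authors' deposited fold; with fragment ratios, 13 of 13 moved by 0.05 or more and 0 changed sign. Pathway counts depended on low values. From 11 of 27 in HT-29 they became 20 of 27 with a pseudocount of 0.1 and 0 of 27 with 10. They were 2 of 12 with 1 FPKM in both libraries, 6 of 22 without inputs at 0 and 15 of 22 by the authors' deposited fold. From 20 of 39 in CaCo-2 they became 0 of 39 with 10 and 2 of 11 with 1 FPKM in both libraries. They were 7 of 26 without inputs at 0 and 15 of 26 by the authors' deposited fold. No paired analysis was possible because each group held 1 library.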
